A study of Mus musculus with 6 samples.

Results

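Expression of the DNA replication machinery and of the E2F factors was assessed in mouse embryonic fibroblasts (MEFs), which are primary cells grown from embryos and kept in culture. The 57 genes were chosen by their known roles, in origin licensing, the replisome, nucleotide supply, histone deposition and E2F control, and not by any measured value. Earlier results of these data were known when they were chosen. All 57 were found among the 25043 genes of the deposited RNA-Seq table. The table summarizes 3 libraries of WT MEFs and 3 of *Anp32e*-/- MEFs, which carry a null mutation of the histone chaperone gene *Anp32e*. Both groups were grown in the same serum-containing medium at low passage and plated the day before RNA isolation, with no treatment named in the labels. Libraries were made from total RNA with a stranded kit. Whether the 3 libraries of a group came from separate embryos is not given in the labels.

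The measurement used here is the mean normalized count, the authors' average over all 6 libraries of read counts scaled by the size factors of DESeq2. It pools both genotypes and has no values per library behind it, so no SD between replicates can be given and *Anp32e*-/- MEFs are not compared with WT MEFs. Every level below therefore describes the 6 libraries together. Each gene is represented by its RefSeq transcript with the highest mean. Levels of different genes are compared mainly after division by transcript length, as normalized counts per kb. Values given as means of normalized counts, without per kb, are not divided by length. The precision of counting alone was narrow: the 95% Poisson interval had a half-width between 0.499% of the level for *Rrm2* and 6.48% for *E2f2*. Within each subcomplex, genes next to each other in level had intervals that did not overlap, except *Prim1* and *Pola2*, and *E2f7* and *E2f5*. These intervals leave out the variation between libraries, which is unknown, and no test was made.

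Chromosomes are copied once per cell cycle. The origin recognition complex (ORC) marks origins, CDC6 and CDT1 load the MCM helicase on them, and CDC45 and GINS activate the helicase when S phase begins. Polymerases, the sliding clamp PCNA and its loader RFC then copy the DNA, while E2F factors control transcription of many of these genes and are themselves restrained by the retinoblastoma family. E2F1, E2F2 and E2F3 are known mainly as activators, E2F4, E2F5 and E2F6 mainly as repressors, and E2F7 and E2F8 as atypical repressors that bind DNA without a DP partner.

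The promoters of the genes were examined first, because E2F factors recognize a short element there. RefSeq promoter sequences (GRCm38.p6, 250 bases before to 50 after the transcription start) were found for 47 of the 57 genes, with 57 promoters in all. They were searched on both strands for the E2F motifs TTTCCCGC, TTTCGCGC, TTTGCCGC and TTTGGCGC, which may overlap each other. A motif was present in 18 of the 57 member promoters, or 31.6% (95% exact binomial interval 19.9% to 45.2%). The interval treats the promoters as independent draws, although some genes have several and the genes are a chosen list. It is not a test against the shares that follow. Among all 32851 promoters of the same length the share was 2.26%, and it was 3.91% among promoters of coding genes that averaged 10 or more normalized counts, termed expressed coding genes. Counted by gene, the shares were 18 of 47 members, or 38.3%, 2.6% of all genes with a promoter and 4.77% of expressed coding genes. A match is a description of the letters and not evidence that a factor binds there. The sites below are shown because they belong to the helicase, to its loaders and to an E2F gene itself, with the motif in capitals, 5′ to 3′ on the strand of the gene.
Mcm3: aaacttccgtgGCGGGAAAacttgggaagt
Mcm5: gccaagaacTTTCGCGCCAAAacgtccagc
Mcm6: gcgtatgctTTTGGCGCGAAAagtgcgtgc
Mcm7: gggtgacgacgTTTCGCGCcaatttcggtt
Orc1: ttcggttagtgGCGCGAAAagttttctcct
Cdc6: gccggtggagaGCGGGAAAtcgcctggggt
Cdt1: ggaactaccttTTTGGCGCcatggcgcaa
E2f3: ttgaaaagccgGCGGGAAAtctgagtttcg

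In *Mcm5* and *Mcm6* the capitals span a pair of overlapping motifs that read on opposite strands. The window of *Mcm3* lies at chr1:20820275-20820304, that of *Mcm5* at chr8:75109347-75109376, that of *Mcm6* at chr1:128359795-128359824 and that of *Mcm7* at chr5:138171849-138171878. The windows of *Orc1* (chr4:108579416-108579445) and *Cdc6* (chr11:98908002-98908031) lie upstream of the RefSeq start used, on the plus strand, but inside the annotated bounds of the gene. The window of *Cdt1* (chr8:122568036-122568064) lies within the first transcribed bases, and that of *E2f3* is at chr13:29986056-29986085 on the minus strand.

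By subcomplex, these 8-letter motifs occurred in 4 of the 5 MCM genes with a promoter in the table (*Mcm3*, *Mcm5*, *Mcm6* and *Mcm7*, but not *Mcm2*) and in 4 of the 7 polymerase and primase genes (*Pola1*, *Pold1*, *Pold3* and *Pole2*). *E2f2*, *E2f3* and *E2f7* held one among the 6 E2F genes, and *Orc1* and *Orc3* among the 6 ORC genes. *Cdc6*, *Cdt1*, *Gins3*, *Rfc3* and *Lig1* complete the 18. None of the 3 RPA genes, the 5 nucleotide supply genes or the 2 histone deposition genes held a motif of these letters in this window, which says nothing of the factor. Every window of *Orc1*, *Orc4*, *Cdc6*, *Rfc1*, *Dut*, *E2f1* and *E2f8* lay inside the annotated bounds of the gene. The bases before the first start of these genes were not searched. The counts by subcomplex turned on the length of the motif. The 6-letter core, which is each motif above without its first and last base, searched on both strands and found in 71.9% of member and 24.9% of all promoters, was present in all 3 RPA genes, both histone deposition genes, *Rrm1* and *Rrm2* of the 5 nucleotide supply genes and all 7 polymerase and primase genes. It was present in 5 of the 6 ORC genes, 4 of the 6 E2F genes and the same 4 MCM genes as the longer motif. No difference between subcomplexes was tested. With overlapping motifs merged there were 22 sites, 12 of them beginning before the transcription start and 10 at or after it. *Mcm3*, *Mcm6*, *Mcm7* and *Rfc3* had more than 1 merged site.

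**Figure D1:**
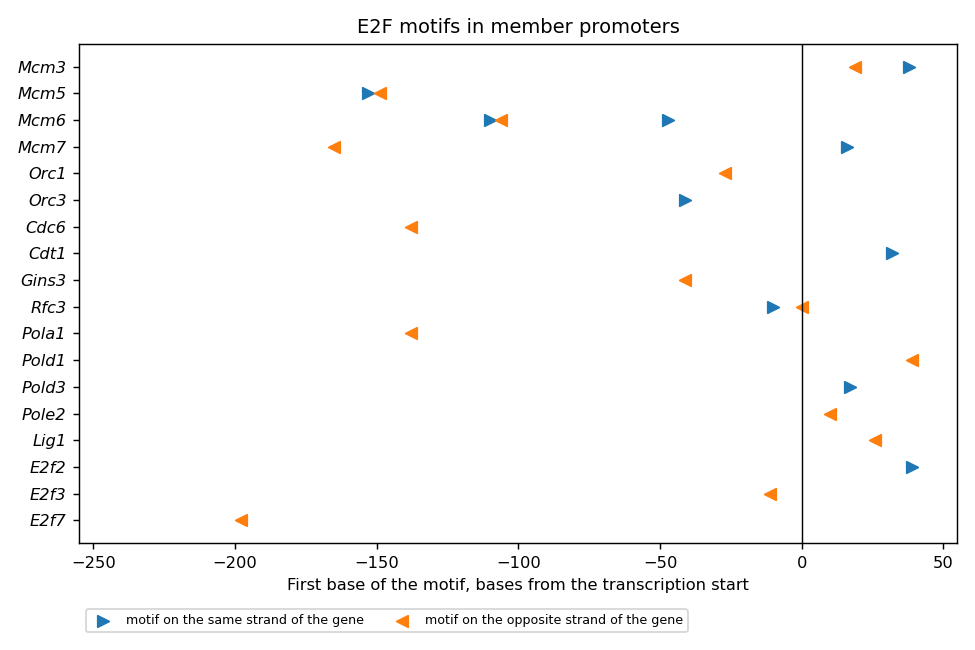
Position of each E2F motif (horizontal axis, bases from the RefSeq transcription start, with the start at 0) in the 18 member genes that hold one (vertical axis), arrowheads pointing right for motifs on the strand of the gene and left for motifs on the other strand. Sites lie on both sides of the start, and the paired arrowheads of *Mcm5* and *Mcm6* are overlapping motifs.

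*Mcm6* is shown with its whole upstream region, since it had the most motifs of any member promoter (3, of which 1 pair overlaps). For 8 of the 57 promoters the bases after the start were not found in a GENCODE transcript of the gene, and those of *Mcm6*, *Mcm5* and *E2f2* are the 3 of these with a motif, so their distances from the start are uncertain. Among the other 49 promoters 15, or 30.6%, held a motif. Their bases could match anywhere in a transcript, so the check does not place these 49 at the first start of a gene. The sequence covers the 250 bases before its start (chr1:128359706-128359955, minus strand). Capitals mark E2F motifs and CCAAT in either orientation, the element bound by NF-Y.
Mcm6: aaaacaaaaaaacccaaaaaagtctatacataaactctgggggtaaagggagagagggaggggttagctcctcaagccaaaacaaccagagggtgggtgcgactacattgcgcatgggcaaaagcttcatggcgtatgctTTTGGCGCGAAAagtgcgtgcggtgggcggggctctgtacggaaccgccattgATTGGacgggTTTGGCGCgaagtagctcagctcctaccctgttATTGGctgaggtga

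CCAAT occurred in 54.4% of member promoters, 37.4% of all promoters and 37.8% of those of expressed coding genes. The GC box GGGCGG, which SP1 binds, occurred in 73.7% of member promoters, against 35.7% of all promoters and 62.2% of those of expressed coding genes. TTTGAA, a form of the cell cycle homology region of late cell cycle genes, was found in 14.0% of member promoters, 17.9% of all promoters and 11.9% of those of expressed coding genes. The median GC content was 62.3% in member promoters, 52.7% in all promoters and 60.7% in those of expressed coding genes. Members with an 8-letter E2F motif had a median level of 879 normalized counts per kb, below the 1813 of the 29 members with none in the windows searched. This split depends on the length of the motif and was not tested. The members without the motif include holders of the 6-letter core, both high (*Rrm2* at 11643, *Pcna* at 11489) and low (*Orc4* at 423, *E2f8* at 306). They also include *Orc4*, *Rfc1*, *Dut*, *E2f1* and *E2f8*, whose bases before the first start were not searched.

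The replication genes had high levels as a set. Of the 57 members, 55 lay above the median of 200.6 normalized counts per kb over the 16457 coding genes with reads and a known length, and 38, or 66.7%, lay above the upper quartile of 849. Their median was 1622 normalized counts per kb, 8.08-fold over the median of all coding genes, and they ranged from 32.5 for *E2f2* to 11643 for *Rrm2*. *Gins3* and *E2f2* were the 2 members below that median. Against expressed coding genes alone, 52 members lay above the median and 31 above the upper quartile.

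**Figure D2:**
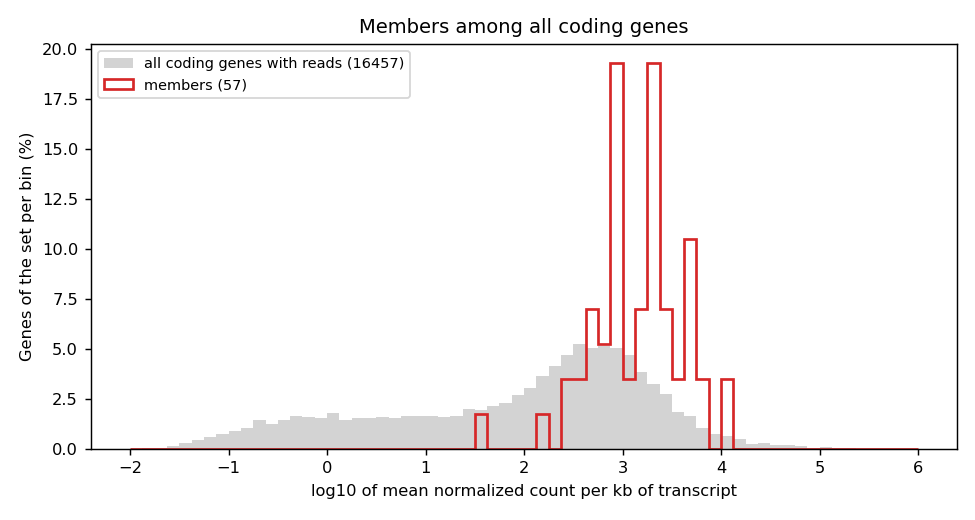
Share of genes per bin (vertical axis, percent of each set) by level (horizontal axis, log10 of mean normalized counts per kb of transcript) for the 16457 coding genes with reads (grey) and the 57 members (red outline). Members occupy the upper part of the range, with separate bins on the left that hold *E2f2* and, nearer to the rest, *Gins3*.

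The 6 subunits of the MCM helicase, which unwinds DNA as a ring of MCM2 to MCM7, had nearly even levels. *Mcm3* (chr1:20802966-20820312) had the highest level at 5822 normalized counts per kb, followed by *Mcm7* at 5603, *Mcm2* at 5059, *Mcm5* at 4748, *Mcm6* at 4306 and *Mcm4* (chr16:15623897-15637400) at 3634. The highest was 1.60-fold over the lowest, the narrowest range per kb among the MCM, ORC, GINS, RFC, polymerase and RPA genes, and all 6 lay between percentiles 93.3 and 95.9 of coding genes. Per kb of coding length *Mcm7* was highest at 7694 and *Mcm4* again lowest at 5043. Undivided by length, their means were 18752 normalized counts for *Mcm6*, 17645 for *Mcm3*, 17052 for *Mcm2*, 16597 for *Mcm7*, 16054 for *Mcm5* and 13042 for *Mcm4*.

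Subunits of ORC, which binds origins and recruits the helicase, were much lower. *Orc6*, the smallest and most loosely attached subunit, stood apart with 2218 normalized counts per kb. *Orc3* (915), *Orc2* (764), *Orc1* (473), *Orc4* (423) and *Orc5* (364) followed, so that *Orc6* was 6.09-fold over *Orc5*. The median of the MCM subunits was 7.93-fold over that of the ORC subunits, or 6.35-fold per kb of coding length. The order below *Orc6* changed with coding length, to *Orc2* at 1574, *Orc4* at 1324, *Orc3* at 967, *Orc5* at 587 and *Orc1*, then the lowest, at 565. For *Orc2*, 29.8% of the exon bases overlap exons of *Nif3l1* on the other strand, and for *Orc1* 10.8% overlap *Gm12743* in the same way. The transcripts of *Orc4* differed by 3.14-fold between highest and lowest mean, the widest such gap among the members.

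Among the licensing and firing factors, the initiation factor *Cdc45* had 1924 normalized counts per kb and *Cdt1*, which brings MCM rings to origins, had 1622. *Cdc6*, the ATPase that works with it, had 619 and *Mcm10*, which helps to activate the helicase, had 590. The 2.62-fold gap between *Cdt1* and *Cdc6* fell to 1.31-fold per kb of coding length. *Gmnn*, which encodes the CDT1 inhibitor geminin, had 1062 normalized counts per kb.

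GINS, a complex of 4 proteins that joins the helicase with CDC45, had the widest range per kb of transcript among the same 6 sets of genes. *Gins4* had 1887 normalized counts per kb, *Gins2* 807, *Gins1* 758 and *Gins3* 165, an 11.4-fold range. The order depended on length: per kb of coding length *Gins2* was highest at 5672 and *Gins3* again lowest at 643. Of the exon bases of *Gins2*, 67.3% overlap exons of *Gse1* on the other strand, and whether the authors' counting used strand is not given in the sources used here. *Gins1* is listed with 2 transcripts, with means of 824 and 399 normalized counts.

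The sliding clamp gene *Pcna* (chr2:132249286-132253180) was the second highest member at 11489 normalized counts per kb, at percentile 97.9 of coding genes. Its loader, a ring of the RFC subunits, had much lower levels, from 1833 for *Rfc3* and 1369 for *Rfc5* through 1072 for *Rfc4* and 995 for *Rfc2* to 770 for *Rfc1*, the large subunit. *Pcna* was 10.7-fold over the median of the 5 RFC genes, or 9.86-fold per kb of coding length. Among the RFC genes coding length changed the order: *Rfc2* was then highest at 4748, followed by *Rfc5* at 3763, *Rfc3* at 2260, *Rfc4* at 1205 and *Rfc1* at 1078. For *Rfc2*, 15.1% of the exon bases overlap *Lat2* on the other strand. The same holds for 12.7% of *Rfc4* with *Eif4a2* and 10.7% of *Rfc5* with *Wsb2*. Pseudogenes named after *Pcna* (2) and *Tyms* (1) are annotated in RefSeq, so reads of these genes could be split or discarded in counting.

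Of the polymerases, *Pold2*, an accessory subunit of polymerase delta, was highest at 3523 normalized counts per kb. Its catalytic partner *Pold1* had 1938 and *Pold3* 630. *Pole*, the catalytic subunit of the leading strand polymerase, had 802 and *Pole2* 843, a pair with a ratio of 0.951. *Pold1* was 2.42-fold over *Pole*, and 2.41-fold per kb of coding length. Polymerase alpha and primase start each new strand: the primase genes *Prim2* (2269) and *Prim1* (1797) and the regulatory *Pola2* (1767) lay close together, and the catalytic *Pola1* was lowest at 553. With coding length *Pold2* stayed highest and *Pola1* lowest, while *Pold1* (2019) lay below *Pola2* (2377) and *Prim1* (2274), and *Pold3* (1399) lay above *Pole2* (910) and *Pole* (839). *Pola1* is the only member on the X chromosome. *Xist*, made from the inactive X, had a mean of 2556 normalized counts and the Y-linked *Ddx3y*, *Eif2s3y*, *Kdm5d* and *Uty* had means from 331 to 551, so the libraries together hold RNA of both sexes.

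The single-strand binding complex RPA had 4670 normalized counts per kb for *Rpa1*, 2729 for *Rpa3* and 1557 for *Rpa2*. *Fen1*, the flap nuclease of Okazaki fragments, had 2625 and the ligase *Lig1* 2191. For *Fen1*, 78.8% of the exon bases overlap the antisense gene *Gm10143*, and reads of the pair could not be told apart if strand was not used. Of the histone chaperone CAF-1, which deposits histones behind the fork, *Chaf1b* had 3155 normalized counts per kb and *Chaf1a* 952. *Chaf1a* shares 52.5% of its exon bases with *Ubxn6* on the other strand, and the 3.32-fold gap of the pair was 1.83-fold per kb of coding length.

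Nucleotide supply genes included some of the highest levels. *Rrm2* (chr12:24708254-24714146) and *Rrm1*, the small and large subunits of ribonucleotide reductase, had 11643 and 6278 normalized counts per kb, a 1.85-fold difference. The thymidine kinase gene *Tk1* had 4962, the dUTPase gene *Dut* 3129 and the thymidylate synthase gene *Tyms* 1813. *Rrm2b*, the p53-inducible small subunit that serves cells outside S phase, had 96.2, so that *Rrm2* was 121-fold higher, or 52.4-fold per kb of coding length. *Rrm2* had the highest level of all members per kb of transcript, whereas *Pcna* did per kb of coding length (22274 against 21824).

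**Figure D3:**
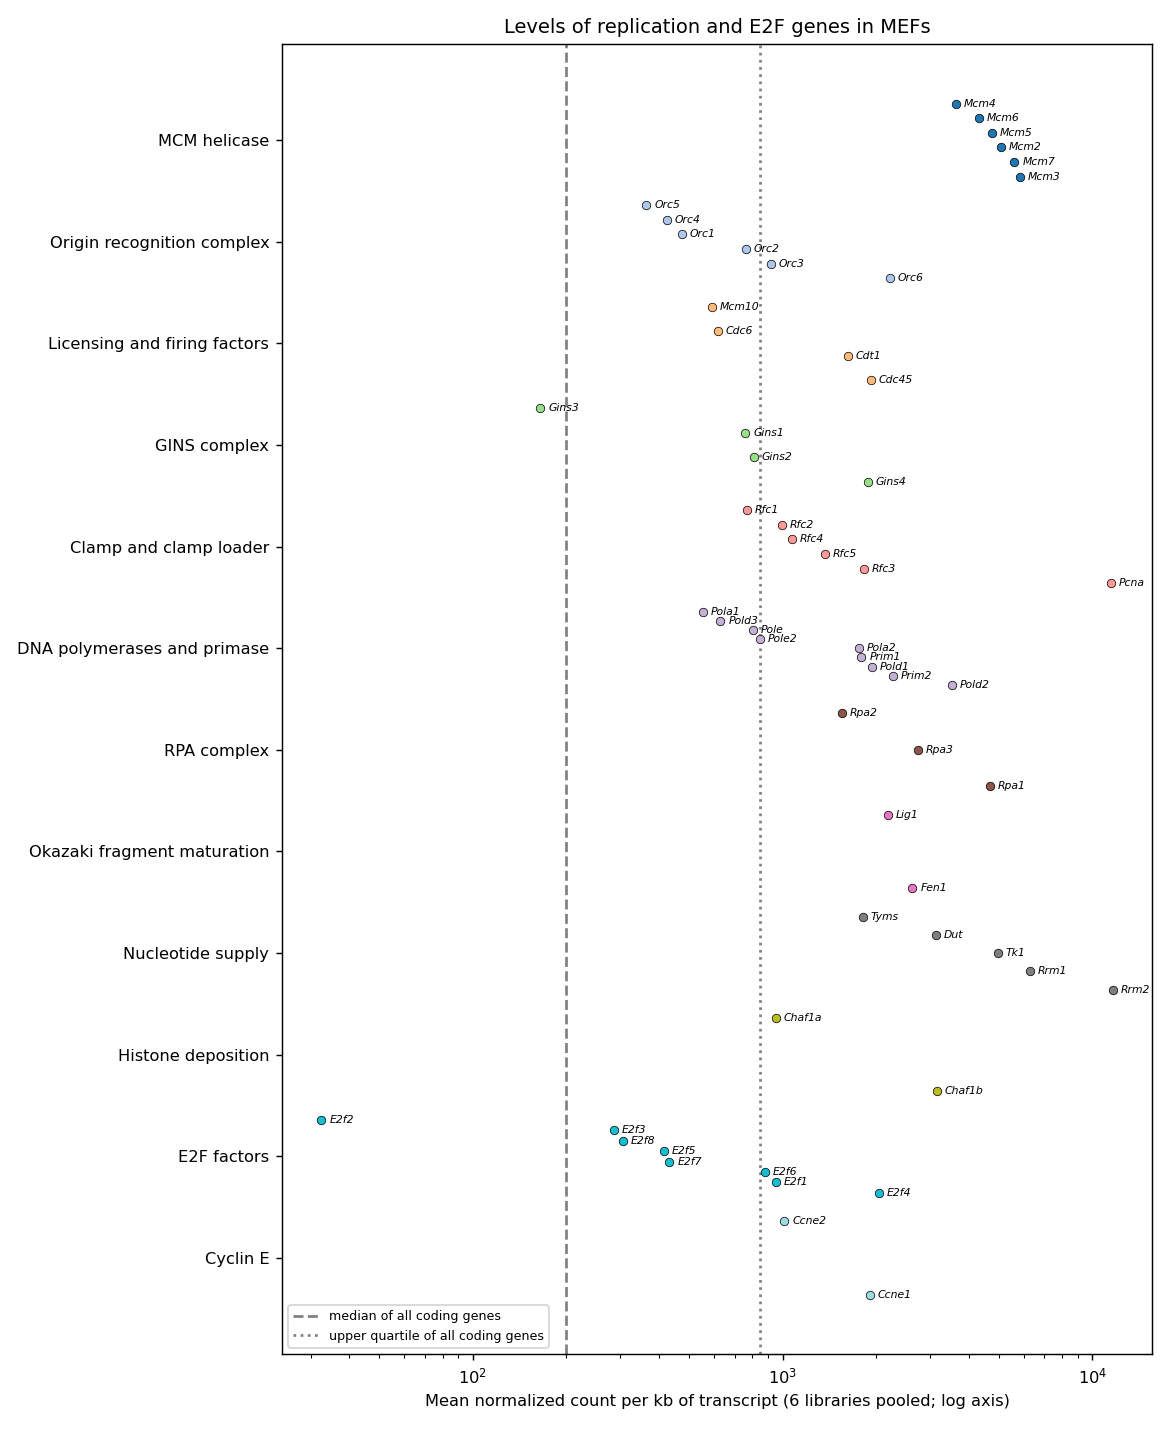
Level of each of the 57 genes (horizontal axis, mean normalized counts per kb of transcript over the 6 libraries together, log axis) by subcomplex (vertical axis), with dashed and dotted lines at the median (200.6) and upper quartile (849) of all coding genes. Each point is 1 gene and carries no error bar, since the table holds no values per library. The MCM genes lie close together, while the GINS and E2F genes are spread widely.

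The E2F family spanned a 62.7-fold range. *E2f4* (chr8:105297663-105305370) was the highest at 2041 normalized counts per kb, 2.14-fold over *E2f1* at 952 and 4.94-fold over *E2f5* at 413. *E2f6*, which represses through Polycomb proteins, had 877. The atypical *E2f7* and *E2f8* had 431 and 306, and the activators *E2f3* and *E2f2* had 286 and 32.5. *E2f4* stayed the highest and *E2f2* the lowest per kb of coding length, at 3307 and 116, and the range was then 28.5-fold. Between them the order changed: *E2f6* (2538) lay above *E2f1* (2033), and *E2f3* (1065) above *E2f7* (871), *E2f5* (732) and *E2f8* (438). With a mean of 154 normalized counts (95% Poisson interval 144 to 164), about 931 reads over the 6 libraries, *E2f2* (chr4:136172274-136196057) was detected but low. Its 2 transcripts differed by 1.21-fold. Those of *E2f3*, which is transcribed from alternative first exons, differed by 1.16-fold. For *E2f8*, 11.2% of the exon bases overlap *Gm2788* on the other strand.

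Cyclin E, the partner of CDK2 at entry into S phase and itself encoded by E2F target genes, had 1916 normalized counts per kb for *Ccne1* and 1014 for *Ccne2*. The 1.89-fold difference fell to 1.25-fold per kb of coding length, and 17.4% of the exon bases of *Ccne2* overlap *Ints8*. *Cdk2* had 2155 normalized counts per kb.

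Coding length leaves out the untranslated ends and is the longest among the matched coding transcripts of the gene. This also holds for *Orc4*, *Cdc6* and *E2f6*, whose representative transcript is a non-coding record. Division by coding length raised the level of every member. It did so by over 3-fold for *Gins2*, *Rfc2*, *Gins3*, *E2f3*, *E2f2*, *Tyms*, *Dut* and *Orc4*. The 4 members *Orc4*, *Cdc6*, *Pold2* and *E2f7* took their length from another transcript of the gene, because the representative one had no match. Among the 28 members with more than 1 transcript, the means differed by less than 5% in 23, and 29 members had a single transcript. The transcripts of a gene thus largely repeat the same reads and were not added.

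**Figure D4:**
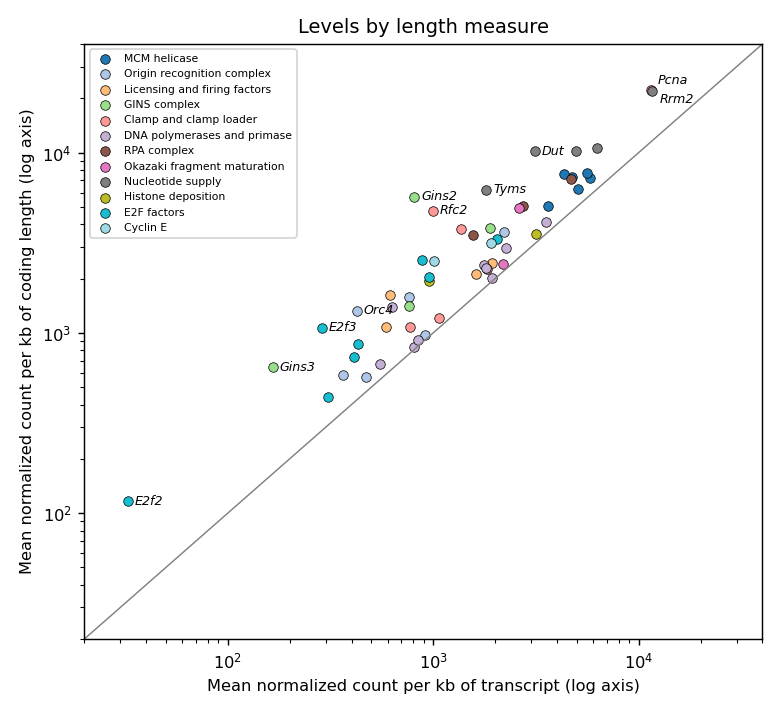
Level per kb of coding length (vertical axis, log) against level per kb of transcript (horizontal axis, log) for the 57 members, coloured by subcomplex, with a line of equality. Points lie above the line because coding length is shorter than transcript length, and named genes are those that move by over 3-fold together with *Pcna* and *Rrm2*. *Gins2* moves from 807 to 5672.

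Other genes of the same pathway were examined as a list of 37 that are not members. All 37 were detected, with a median of 648 normalized counts per kb, and 29 lay above the median of all coding genes and 17 above the upper quartile. The highest were *Ccnd1*, the D-type cyclin of growth factor response, at 6656, *Ccna2*, the S phase cyclin, at 4144, *Top2a*, the topoisomerase that untangles replicated DNA, at 3802 and *Tfdp1*, the dimerization partner of E2Fs, at 3413. *Tfdp2* had 178, which was 19.1-fold lower than *Tfdp1*, or 6.57-fold per kb of coding length. The retinoblastoma family had 371 for *Rbl1*, 223 for *Rbl2* and 165 for *Rb1*. *Cdc7*, the kinase that fires origins, had 230 while its activator *Dbf4* had 1471. *Mcm8* and *Mcm9*, helicases of recombination rather than of licensing, had 142 and 88.8, far below MCM2 to MCM7. The 8 pathway genes below the median of coding genes were *Ticrr*, *Mcm8*, *Mcm9*, *Rrm2b*, *Atad5*, *Dna2*, *Rb1* and *Tfdp2*.

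The labelled cell type was checked against marker genes. Of 10 fibroblast markers, 8 lay above the median of coding genes, led by *S100a4* and *Vim* at 174860 and 150796 normalized counts per kb, while *Pdgfra* and *Dcn* lay below it. Each list of other cell types had at most 1 of 5 markers above the median (*Krt19*, *Krt18*, *Kdr* and *Cd68*). *Myod1* and *Emcn* are listed at 0 and *Ptprc*, *Pecam1* and *Epcam* had means from 3.09 to 5.12 normalized counts. Other markers of these lists were well detected: *Krt19* had a mean of 7400 normalized counts (percentile 94.9 of coding genes per kb), *Kdr* 2958, *Krt18* 1106 and *Cd68* 257. The mesothelial markers *Upk3b*, *Msln* and *Wt1* had means of 605, 381 and 300.3 normalized counts. The proliferation marker *Mki67* had 1210 and the CDK inhibitor gene *Cdkn1a* 4528 normalized counts per kb. In bulk RNA, fewer cells of a type and less RNA per cell cannot be told apart, which also holds for the share of cells in S phase. *Anp32e* had a mean of 2190 normalized counts over the 6 libraries, which cannot check the genotype labels.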

How the data were processed

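RNA-Seq of 3 WT and 3 *Anp32e*-/- MEF libraries was analysed from 1 deposited table of 42361 RefSeq transcripts. Per the labels and the methods, the authors aligned reads to mm10 with STAR, counted them with featureCounts and ran DESeq2; the strand setting of the counting is not given in the sources used here. The signal column used is the authors' mean of size-factor normalized counts over all libraries. The other 5 columns hold the authors' own fold changes, errors, statistics and p-values for *Anp32e*-/- against WT, and were not used. No model was fitted and no test was made. Size factors, from the means of transcripts with a single read, were 0.909 to 1.13, and the means of all genes sum to 5.12275e+07 normalized counts, an average depth, since no totals per library can be had. From these, total reads and 95% Poisson intervals were computed; they cover counting error only.

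Transcripts were matched to genes with RefSeq GRCm38.p6 (42203 matched, 158 not). Lengths are those of matched GENCODE M21 transcripts, known for 98.9% of the 16644 coding genes with reads. Members, pathway genes and markers were chosen with earlier results of these data known. All members were to be reported, by subcomplex. Of the 57 promoters, 49 had bases after the start that were found, at any position, in a GENCODE transcript of the gene. Scripts were tested on simulated data. Python 3.11.15, numpy 2.4.6, pandas 2.3.3, scipy 1.17.1 and matplotlib 3.10.9 were used. Alternatives were the choice of transcript, of length, of background and of motif.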

Additional observations from a re-analysis of the deposited data

How the results depend on the processing

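Of 53 values recomputed under another setting, 32 stayed within 6.48%, the widest counting error of a member (levels and ranges), within the binomial interval (promoter shares) or within 1.5-fold (counts). These included every count of members above the median (45 to 56) or upper quartile (31 to 44) of genes, where 45 was of the 47 members left without overlaps. The 1.5-fold limit was loose: the main 55 of 57 could not exceed it upward, and 31 or 44 against the main 38 passed. The GINS (11.4-fold) and RFC (2.38-fold) ranges were identical under each choice of transcript, because their highest and lowest genes have a single distinct mean. The 32 therefore include values with little or no room to move. The 8.08-fold median level of members over all coding genes became 6.51 when the distinct means of transcripts were summed, 5.58 undivided by length, 5.90 per kb of coding length and 9.14 without the 10 members whose exons overlap another gene by over 10%. Summing transcripts, which counts shared reads repeatedly, moved the range within complexes to 4.62-fold for MCM, 17.9-fold for ORC and 34.4-fold for E2F genes. Undivided by length the ranges were 1.44-fold for MCM, 3.73-fold for ORC, 7.56-fold for GINS, 26.4-fold for E2F and 3.78-fold for RFC genes. Per kb of coding length they were 8.83-fold for GINS, 28.5-fold for E2F and 4.41-fold for RFC genes. The longest transcript gave 5.20-fold for ORC and the median over transcripts 68.8-fold for E2F genes. With an E2F core of 6 letters, 71.9% of member and 24.9% of all promoters had a match; the inner window gave 1.66% of all promoters, and coding genes with a mean of at least 10 gave 3.91%. Coding length, the overlap filter and the transcript check of promoters (30.6% of member promoters) were chosen after seeing the data.

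No paired analysis was possible because the table holds no values per library; leaving out a replicate, edgeR and DESeq2 fits were not run for the same reason.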
